A study of Mus musculus with 8 samples.

Results

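The interferon regulatory factor family was followed on 8 expression arrays of mouse CD8 T cells. The 8 genes Irf1, Irf2, Irf3, Irf4, Irf5, Irf7, Irf8 and Irf9 were taken by name, and every probe set annotated with exactly 1 of these symbols was used. That gave 14 probe sets for all 8 genes, out of 12393 genes with such a probe set on the array. Irf3 had 4 probe sets, Irf4, Irf5 and Irf8 had 2 each, and the other genes had 1. The probe set with the highest mean stood for its gene, and all 8 genes lay above the filter on low values.

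The T cells came from 4 OT-1 mice, A to D, whose CD8 T cells carry a transgenic receptor for a peptide of ovalbumin (OVA). Activated cells of each mouse were divided between OVA peptide-loaded ID8 ovarian cancer cells that overexpressed PD-L1 and OVA peptide-loaded ID8 cells depleted of PD-L1, at 30 T cells per target cell for 4 h, and were then collected with magnets. Each mouse gave 1 array per target, hence 4 arrays of the PD-L1-overexpressing kind and 4 of the PD-L1-depleted kind. No array of T cells without targets or with unaltered ID8 cells was analysed here. How PD-L1 was raised or depleted, whether the ID8 lines were clones, and the age of the mice are not given in the sources used here.

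Interferon regulatory factors are transcription factors that share a DNA-binding domain and recognise the interferon-stimulated response element. IRF3 and IRF7 are activated by sensors of nucleic acids and drive type I interferon genes, IRF5 acts downstream of Toll-like receptors, IRF9 is the part of the complex ISGF3 that recognises DNA, and IRF1 is induced by interferon-gamma and is counteracted by IRF2. IRF4 and IRF8 are the lymphoid and myeloid members. In CD8 T cells IRF4 is induced by the T cell receptor, binds DNA with BATF and JUN proteins, and is needed for expansion and effector differentiation.

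Promoter windows are shown for the 5 genes whose level differed between mice. Each window runs from 250 bases before to 50 bases after the start site in RefSeq (GRCm38.p6), 5′ to 3′ along the gene. For Irf1, Irf8 and Irf9 the table holds a second start site, and the upstream one is printed. Capitals mark the letters TTCNNNGAA, a form of the gamma-activated site found in genes that respond to interferon-gamma.
Irf1 (chr11:53769764-53770063, plus strand): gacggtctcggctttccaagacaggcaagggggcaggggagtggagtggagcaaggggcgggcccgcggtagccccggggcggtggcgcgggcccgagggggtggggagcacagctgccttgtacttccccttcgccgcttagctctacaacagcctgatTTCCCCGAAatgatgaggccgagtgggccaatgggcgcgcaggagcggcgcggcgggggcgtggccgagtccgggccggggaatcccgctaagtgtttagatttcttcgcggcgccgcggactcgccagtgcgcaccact
Irf9 (chr14:55603735-55604034, plus strand): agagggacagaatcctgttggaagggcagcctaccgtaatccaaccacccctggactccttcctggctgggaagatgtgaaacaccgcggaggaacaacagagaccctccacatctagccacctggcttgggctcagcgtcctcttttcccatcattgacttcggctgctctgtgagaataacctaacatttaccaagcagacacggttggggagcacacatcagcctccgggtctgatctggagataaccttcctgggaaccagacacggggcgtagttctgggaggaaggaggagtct
Irf7 (chr7:141266375-141266674, minus strand): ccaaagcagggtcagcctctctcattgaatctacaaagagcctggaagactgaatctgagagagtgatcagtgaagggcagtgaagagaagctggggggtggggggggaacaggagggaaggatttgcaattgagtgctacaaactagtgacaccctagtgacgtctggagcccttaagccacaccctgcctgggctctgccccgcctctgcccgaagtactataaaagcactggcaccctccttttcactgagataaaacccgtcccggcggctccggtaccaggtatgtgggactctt
Irf4 (chr13:30748983-30749282, plus strand): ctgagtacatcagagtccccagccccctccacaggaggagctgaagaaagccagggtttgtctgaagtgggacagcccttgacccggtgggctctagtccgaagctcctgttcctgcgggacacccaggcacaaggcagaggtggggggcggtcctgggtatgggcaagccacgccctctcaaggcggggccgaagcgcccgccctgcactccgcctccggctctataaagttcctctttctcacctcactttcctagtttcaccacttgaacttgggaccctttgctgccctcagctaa
Irf8 (chr8:120736108-120736407, plus strand): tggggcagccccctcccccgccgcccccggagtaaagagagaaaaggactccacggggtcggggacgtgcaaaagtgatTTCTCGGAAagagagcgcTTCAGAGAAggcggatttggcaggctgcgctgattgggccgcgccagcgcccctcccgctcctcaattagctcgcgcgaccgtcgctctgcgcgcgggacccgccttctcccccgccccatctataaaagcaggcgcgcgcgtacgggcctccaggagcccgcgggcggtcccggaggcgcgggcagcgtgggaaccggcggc

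All 8 genes matched the promoter table, with 11 windows. The gamma-activated letters, which read the same on both strands, occurred in 3 of these windows and in 8.30% of all 32851 windows in the table. Irf1 held TTCCCCGAA, whose first base lies 90 bases before the start site. The printed Irf8 window held TTCTCGGAA and TTCAGAGAA, beginning 171 and 153 bases before the start. The Irf2 window, not printed, held TTCCGAGAA at 224 bases before the start. The core of the interferon-stimulated response element, searched as GAAANNGAA on both strands, occurred in 1 window, as GAAAATGAA in Irf2, and in 8.56% of all windows. A kappa B form, searched as GGGNNTTCC on both strands, also occurred in 1 window, as GGGATTTCC in Irf2, and in 5.82% of all windows. No matches overlapped each other in these windows, and none of the 3 motifs was found in the windows of Irf3, Irf4, Irf5, Irf7 or Irf9. A match describes the letters and does not show binding, and windows without one say nothing of the factor.

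Gene positions are those of RefSeq in GRCm38.p6, and the part of the transcript that a probe set covers is not given in the sources used here. Values are deposited log2 expression values, so a difference of 1 is 2-fold. They are compared within a probe set only, since probe sets differ in brightness for the same amount of RNA. The names of the probe sets used for Irf2, Irf3 and Gbp2 mark probes that may also match other transcripts, so their levels are less certain. The CD8 T cell label was borne out by Cd3d, Cd3e, Cd3g, Cd247, Cd8a and Cd8b1, which lay between 10.27 and 14.03 on every array. Of 7 B cell markers measured, only Ighm was above the filter of 6.87, and of 9 macrophage and dendritic cell markers Csf1r, Flt3 and Cd68 were. Markers of ID8 cells gave signal too. The mean of the 14 ID8 markers was 7.47 (mouse A), 6.91 (B), 7.83 (C) and 7.78 (D) with PD-L1-overexpressing targets, against 6.90, 7.73, 7.33 and 7.28 with PD-L1-depleted targets. PD-L1-overexpressing targets thus went with the higher mean in A, C and D, and with the lower one in mouse B. All 8 of these markers above the filter read lower with PD-L1-overexpressing targets in B. Upk3b read 9.28 (A), 9.95 (C) and 9.78 (D) with PD-L1-overexpressing targets, against 7.61, 8.07 and 7.96 with PD-L1-depleted targets. In B it read 7.51 against 9.79, a larger gap in the opposite direction, as also held for Sparc, Cald1 and Msln. Krt8 and Krt19 differed less between targets, and Krt8 in C was 8.89 against 8.91. The part of ID8 cells in the comparison of targets was not tested. Of 3 markers of CD4 and regulatory T cells Cd4 and Zbtb7b were above the filter, and markers of NK cells and neutrophils were not.

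None of the 8 genes passed the test between targets. The comparison asks whether contact with targets rich in PD-L1 changes the T cells' transcripts, and a limma fit with a term for each mouse called 0 of 8 members, beside 0% of 8003 genes tested (all adjusted p of members 0.9995). No member had an unadjusted p under 0.05, against 228 of all genes, and the smallest p of a member was 0.165, for Irf5. Differences ran from -0.038 for Irf1 to 0.070 for Irf5 on the log2 scale, with a median of 0.012 over the 8 members and 0.0033 over all genes. The upper bounds of the 95% intervals reached 0.18, which is 1.13-fold, and the lower bounds reached -0.15, which is 1.11-fold in the other direction. Changes past these sizes lie outside the interval of the probe set that stood for each gene, taking the target of every array as labelled. Some intervals were narrower, as for Irf1, whose upper bound was 0.039. Changes within a member's own interval could not be told from none with 4 mice. When every probe set was tested on its own, others had lower bounds down to -0.30 (Irf5) and -0.20 (Irf3). Without mouse B, where ID8 markers ran the other way, 176 genes (2.2%) passed and again 0 members. Member differences then ran from -0.057 for Irf4 to 0.096 for Irf5. Whether the arrays of mouse B carry each other's label was not tested.

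**Figure D1:**
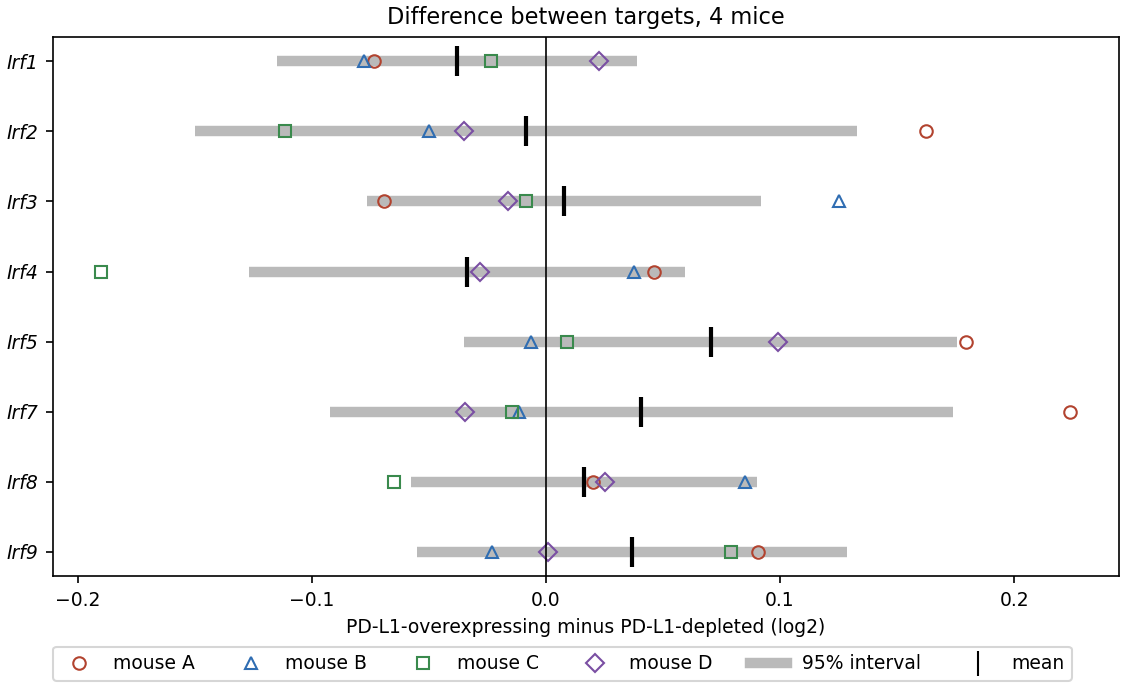
Differences between targets for the 8 Irf genes, as PD-L1-overexpressing minus PD-L1-depleted log2 expression (horizontal axis). Symbols are the 4 mice, black ticks the mean over mice and grey bars the 95% interval of the limma fit. All 8 bars include 0, and the farthest single mouse is A for Irf7 at 0.22.

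Differences between animals passed for most members. The limma F test between mice called 5 of the 8 members, Irf1, Irf4, Irf7, Irf8 and Irf9, beside 29.3% of all genes tested. Irf2, Irf3 and Irf5 did not pass. The median range between the highest and lowest mouse was 0.30 over the members and 0.19 over all genes. The widest were Irf7 at 0.56 and Irf1 at 0.52, or 1.47-fold and 1.43-fold, and no member reached 2-fold, as 0.962% of genes did. The 2 arrays of a mouse come from the same T cells, so these p-values measure animals against the spread between co-cultures, and a property of the animal cannot be told apart from one of its culture. Without mouse A, the F test called 3 of 8 members, Irf1, Irf8 and Irf9, beside 7.2% of genes. Leaving out B, C or D gave 5 of 8 each time, beside 44.4%, 23.5% and 20.3% of genes.

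**Figure D2:**
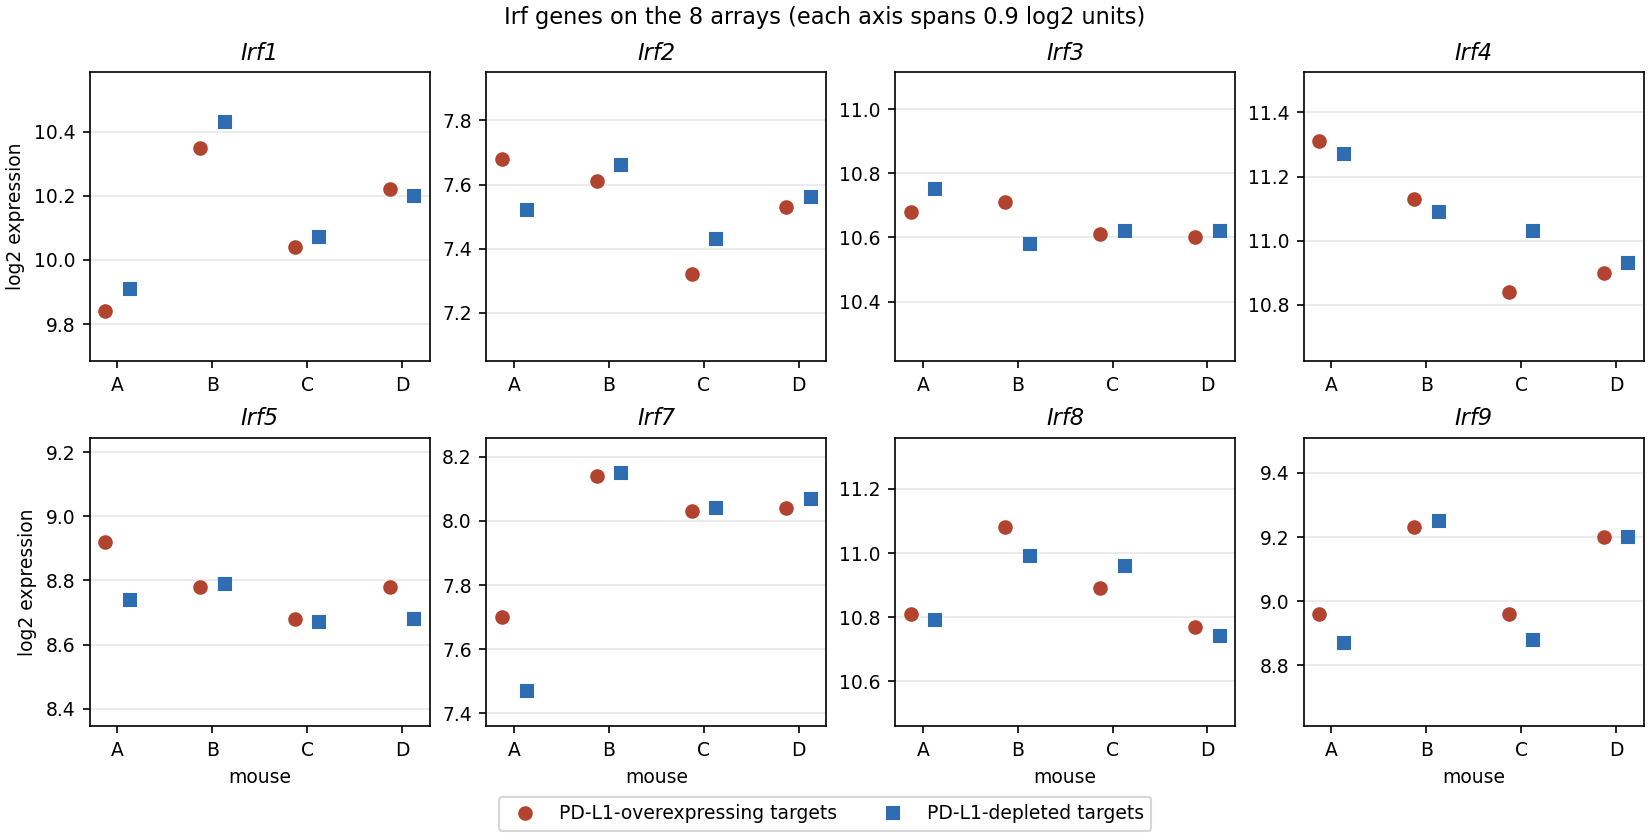
Log2 expression (vertical axis) of the 8 Irf genes on the 8 arrays, by mouse (horizontal axis). Red circles are arrays with PD-L1-overexpressing and blue squares arrays with PD-L1-depleted targets, and every panel spans the same height of 0.9. The arrays of a mouse lie close together for Irf1 and Irf9, Irf7 is low in mouse A and Irf4 is high there.

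Set against the mean of the other mice, the members moved in different directions in one animal. In mouse A, 1 member was higher (18.1% of all genes were) and 3 were lower (12.7% of genes). In mouse B, 3 were higher (6.3% of genes) and 0 lower (2.96%). Mouse C had 0 higher (3.09%) and 1 lower (5.35%), and mouse D had 0 higher (4.56%) and 2 lower (4.09%). Irf1, Irf7 and Irf9 were the genes lower in mouse A, and Irf4 was the gene higher there. Irf1, Irf8 and Irf9 were higher in B, Irf9 lower in C, and Irf4 and Irf8 lower in D.

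**Figure D3:**
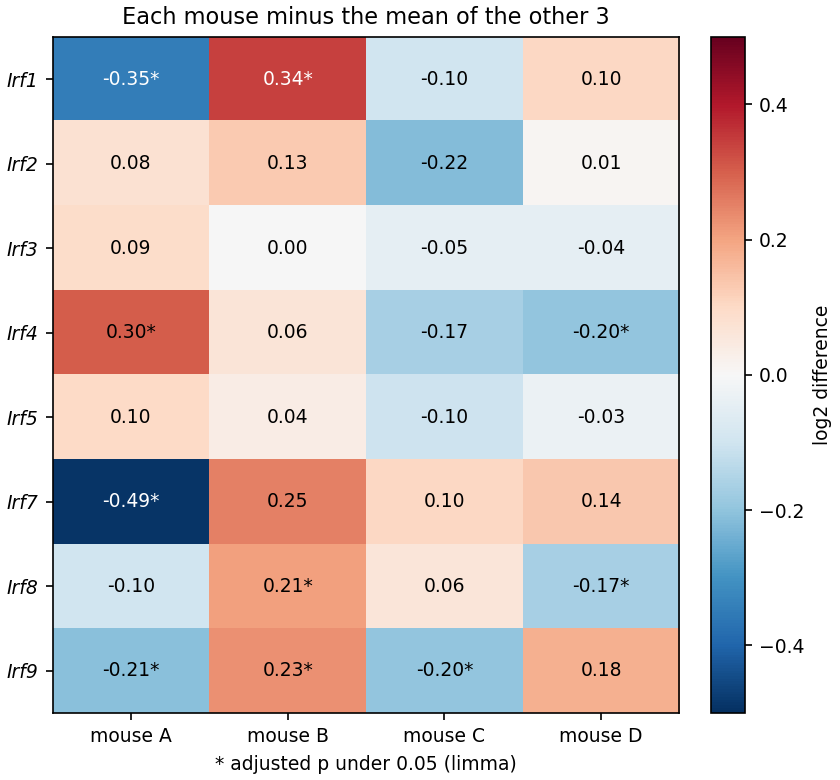
Each mouse minus the mean of the other 3 mice, in log2 units, for the 8 Irf genes (rows) and 4 mice (columns). Red is higher and blue lower, and an asterisk marks a limma adjusted p under 0.05. Irf1, Irf7 and Irf9 are lower in mouse A, where Irf4 is higher, and no gene of the family is called lower in mouse B.

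Irf1 (chr11:53770014-53778374), the activator induced by interferon-gamma, had the smallest p of the family in the F test between mice (limma adjusted p = 0.000382). With PD-L1-overexpressing targets it read 9.84 (mouse A), 10.35 (B), 10.04 (C) and 10.22 (D), against 9.91, 10.43, 10.07 and 10.20 with PD-L1-depleted targets. The order B, D, C, A held for both targets, and no array of one mouse fell within the range of another. The groups overlapped, at means of 10.11 ± 0.22 (PD-L1-overexpressing) and 10.15 ± 0.22 (PD-L1-depleted; SD, n = 4 each). The mouse explained 97.9% of its variance and the target 0.975%. Set against the other mice, Irf1 was lower in mouse A (-0.35, SE 0.039, limma adjusted p = 0.000256) and higher in B (0.34, SE 0.039, adjusted p = 0.00102). Between targets it differed by -0.038 (SE 0.034) and was lower in 3 of 4 mice with PD-L1-overexpressing cells, not past the test (adjusted p = 0.9995).

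Irf2 (chr8:46739745-46847458), the factor that competes with IRF1 for the same sites, did not follow it. With PD-L1-overexpressing targets it read 7.68 (mouse A), 7.61 (B), 7.32 (C) and 7.53 (D), against 7.52, 7.66, 7.43 and 7.56 with PD-L1-depleted targets. Both arrays of mouse C were the lowest for their target, both arrays of B lay above those of D, and A overlapped B and D. The groups averaged 7.54 ± 0.16 for PD-L1-overexpressing and 7.54 ± 0.095 for PD-L1-depleted targets (SD, n = 4 each), with a difference of -0.0086 (SE 0.063). The F test did not pass (limma adjusted p = 0.144), with 7.38 in mouse C and 7.64 in B as the lowest and highest means.

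Irf9 (chr14:55603985-55610030), the DNA-binding part of ISGF3, split the mice into pairs. With PD-L1-overexpressing targets it read 8.96 (mouse A), 9.23 (B), 8.96 (C) and 9.20 (D), against 8.87, 9.25, 8.88 and 9.20 with PD-L1-depleted targets. All arrays of B and D lay above all arrays of A and C, and within the pair A and C the arrays overlapped. The groups overlapped, at 9.09 ± 0.15 (PD-L1-overexpressing) and 9.05 ± 0.20 (PD-L1-depleted; SD, n = 4 each). The F test passed (limma adjusted p = 0.00355). Irf9 was lower in mouse A (-0.21, SE 0.047, adjusted p = 0.00948) and in C (-0.20, adjusted p = 0.0354), and higher in B (0.23, adjusted p = 0.0178). In mouse D it was 0.18 above the others and just missed the threshold (adjusted p = 0.0504). The call in mouse C was lost with quantile normalisation (adjusted p = 0.0834), with no filter (0.0514) and without a trend (0.0513), and that in B with array weights (0.0690). The difference between targets was 0.037 (SE 0.041).

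Irf7 (chr7:141263183-141266499), the inducible amplifier of type I interferon, was low in a single animal. With PD-L1-overexpressing targets it read 7.70 (mouse A), 8.14 (B), 8.03 (C) and 8.04 (D), against 7.47, 8.15, 8.04 and 8.07 with PD-L1-depleted targets. Both arrays of mouse A lay below all others, and those of C and D did not separate clearly. Means were 7.98 ± 0.19 for the PD-L1-overexpressing and 7.94 ± 0.31 for the PD-L1-depleted group (SD, n = 4 each), and the groups overlapped. The F test passed (limma adjusted p = 0.00398). Mouse A was lower (-0.49, SE 0.068, adjusted p = 0.000788), whereas B, at 0.25 above the others, did not pass (adjusted p = 0.0516). Without mouse A it did not pass (F adjusted p = 0.55). Its difference between targets, 0.041 (SE 0.059), rested on mouse A, where it was 0.22, while the other mice gave -0.012, -0.015 and -0.034. Without mouse A it was -0.020.

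Irf3 (chr7:44997648-45002848), which is present in resting cells and activated by phosphorylation, had the smallest range between mice when the brightest probe set stood for each gene. With probe sets averaged per gene the range was 0.118 for Irf3 and 0.0348 for Irf5. Its main probe set read 10.68 (mouse A), 10.71 (B), 10.61 (C) and 10.60 (D) with PD-L1-overexpressing targets, against 10.75, 10.58, 10.62 and 10.62 with PD-L1-depleted targets. Both arrays of A lay above those of C and D, mouse B overlapped all the others, and the mouse means spanned 0.10 (limma F adjusted p = 0.331). The group means were 10.65 ± 0.052 (PD-L1-overexpressing) and 10.64 ± 0.074 (PD-L1-depleted; SD, n = 4 each). Of its 4 probe sets 3 lay above the filter, and none passed between targets or between mice when every probe set was tested on its own. Their differences between targets were 0.0078, -0.040, -0.061 and 0.022, so that they had no common sign. Over the 8 arrays the probe sets correlated with each other at -0.17 to 0.80.

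Irf5 (chr6:29526130-29541869) had 2 probe sets that went in opposite directions. The brighter read 8.92 (mouse A), 8.78 (B), 8.68 (C) and 8.78 (D) with PD-L1-overexpressing targets, against 8.74, 8.79, 8.67 and 8.68 with PD-L1-depleted targets. It averaged 8.79 ± 0.097 (PD-L1-overexpressing) and 8.72 ± 0.052 (PD-L1-depleted; SD, n = 4 each), and the groups overlapped. The other read 6.96, 7.14, 7.30 and 7.02 with PD-L1-overexpressing targets, against 7.27, 7.05, 7.22 and 7.30 with PD-L1-depleted targets. Over the 8 arrays they correlated at -0.87, and their differences between targets were 0.070 (SE 0.047) and -0.11 (SE 0.085). Neither passed between targets or between mice (F adjusted p = 0.288 for the brighter), and no direction is given for Irf5.

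Irf4 (chr13:30749233-30766981), the member tied to T cell receptor strength, was the only member called higher in mouse A. It read 11.31 (mouse A), 11.13 (B), 10.84 (C) and 10.90 (D) with PD-L1-overexpressing targets, against 11.27, 11.09, 11.03 and 10.93 with PD-L1-depleted targets. Both arrays of A lay above all others, those of B came next, and those of C and D overlapped. Group means, which overlapped in their arrays, were 11.05 ± 0.22 (PD-L1-overexpressing) and 11.08 ± 0.14 (PD-L1-depleted; SD, n = 4 each). The F test passed (limma adjusted p = 0.00407), with mouse A higher (0.30, SE 0.048, adjusted p = 0.00158) and mouse D lower (-0.20, adjusted p = 0.0347). The call in mouse D was lost without a trend (adjusted p = 0.109) and when all probe sets were tested (adjusted p = 0.0613). Its second probe set, from 10.32 to 10.64, correlated with the first at 0.87. Tested on its own over all probe sets, it differed by 0.13 in mouse A (adjusted p = 0.120). In mouse D it differed by -0.18 (adjusted p = 0.109), and the F test did not pass (adjusted p = 0.0749). The F test on the first probe set did not pass without mouse A (adjusted p = 0.121). Between targets Irf4 differed by -0.034 (SE 0.041), with mouse C at -0.19 and the other mice between -0.028 and 0.046.

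Irf8 (chr8:120736358-120756694), best known from myeloid and B cells and also induced in activated CD8 T cells, gave clear signal here. It read 10.81 (mouse A), 11.08 (B), 10.89 (C) and 10.77 (D) with PD-L1-overexpressing targets, against 10.79, 10.99, 10.96 and 10.74 with PD-L1-depleted targets. The order was B, C, A, D for both targets. The overlapping groups averaged 10.89 ± 0.14 (PD-L1-overexpressing) and 10.87 ± 0.12 (PD-L1-depleted; SD, n = 4 each), and the difference between targets was 0.016 (SE 0.033). The F test passed (limma adjusted p = 0.00671), with mouse B higher (0.21, SE 0.038, adjusted p = 0.0104) and D lower (-0.17, SE 0.038, adjusted p = 0.0266). On the second probe set, which correlated with the first at 0.90, mouse B was again higher (0.22, adjusted p = 0.0441) but A was lowest, at -0.22 (adjusted p = 0.0157), and D did not pass (-0.12, adjusted p = 0.289). The mean of the probe sets and the fit without a trend also ended the call in D (adjusted p = 0.0663 and 0.0855). Over 7 B cell markers, most of them under the filter, the mean was 6.83 and 6.76 in mouse B. The other mice read 6.61 to 6.82 with PD-L1-overexpressing and 6.71 to 6.97 with PD-L1-depleted targets. Ighm, the only 1 above the filter, was called higher in B (0.18) and D (0.45) and lower in A (-0.65). For the 9 macrophage and dendritic cell markers, of which 3 were above the filter, the mean was 6.75 and 6.65 in B. The other mice read 6.64 to 6.86 with PD-L1-overexpressing and 6.81 to 6.98 with PD-L1-depleted targets. The part of such cells in the Irf8 level was not tested.

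Mouse A, where Irf1, Irf7 and Irf9 were lower, also read lower for T cell genes. Of the 6 CD3 and CD8 genes 4 were lower and 0 higher there (12.7% and 18.1% of all genes), with a median of -0.14. Ighm was lower (-0.65), and the ID8 markers above the filter had a median of -0.48. Of these 8 markers 1 was called lower, about the share over all genes. Their part in the differences of the Irf genes was not tested. In bulk samples fewer cells expressing a gene and less RNA per cell cannot be told apart.

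Genes that carry signals to these factors, or damp them, also differed between animals. The list held interferon receptors, JAK and STAT genes, the feedback inhibitors Socs1, Socs3 and Usp18, activating kinases and adaptors, and interferons. Socs1 is also in the IRF1 list below, and Usp18 and Ifih1 in that of IRF3, IRF7 and ISGF3. Of 20 genes tested, 12 (60%) passed the F test, these inhibitors among them, beside 29.3% of all genes, and 0 passed between targets. Between targets 14 were higher and 6 lower with PD-L1-overexpressing cells (median 0.015). In single mice 3 were higher and 5 lower in A (18.1% and 12.7% of all genes), and 6 higher and 0 lower in B (6.3% and 2.96%). In C 1 was higher and 7 lower (3.09% and 5.35%), and in D 3 were higher and 1 lower (4.56% and 4.09%). Ifngr1, a chain of the interferon-gamma receptor, averaged 10.23 (mouse A), 10.97 (B), 10.62 (C) and 10.80 (D), thus lowest and highest in the same animals as Irf1. It was lower in A (-0.56, limma adjusted p = 1.58e-05) and higher in B (0.42, adjusted p = 0.00035). Stat2, the partner of IRF9, averaged 7.47 (A), 7.83 (B), 7.48 (C) and 8.02 (D) (F adjusted p = 0.00199), again higher in B and D than in A and C. Usp18, an interferon-induced brake on the type I receptor, averaged 7.45 (A), 8.72 (B), 7.35 (C) and 8.74 (D), a range of 2.62-fold. Ikbke, a kinase of IRF3 and IRF7, and Ifngr2 had the smallest p between targets in this list, at -0.11 (SE 0.042) and 0.12 in 4 of 4 mice each, and did not pass.

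Genes that IRF1 and interferon-gamma are known to induce also differed between animals in most cases. Of 14 tested, 12 (85.7%) passed the F test, beside 29.3% of all genes. Calls were 2 higher and 8 lower in mouse A (18.1% and 12.7% of all genes) and 9 higher and 0 lower in B (6.3% and 2.96%). They were 0 higher and 11 lower in C (3.09% and 5.35%), and 5 higher and 1 lower in D (4.56% and 4.09%). List medians were -0.13, 0.20, -0.18 and 0.12 in A, B, C and D, beside 0.022, -0.0065, -0.018 and 0.00088 over all genes. Gbp2, an interferon-inducible GTPase, averaged 10.41 (A), 11.74 (B), 10.92 (C) and 11.61 (D) (F adjusted p = 5.32e-07). Casp1, the inflammatory caspase, averaged 8.74, 10.30, 9.26 and 9.93 in A, B, C and D, a range of 2.96-fold. The 2 genes higher in mouse A were Socs1, a feedback inhibitor (0.18, adjusted p = 0.0112), and Cd274, which encodes PD-L1 (0.54, adjusted p = 4.78e-05). Between targets 10 of 14 were higher and 4 lower with PD-L1-overexpressing cells, none past the test, and Tapbp and Bst2 had the smallest p, at 0.045 and 0.042.

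Genes driven by IRF3, IRF7 and ISGF3 had list medians of -0.20, 0.11, -0.070 and 0.225 in A, B, C and D, with the same signs as the IRF1 list. Of 11 tested, 6 (54.5%) passed the F test, beside 29.3% of all genes, and between targets 3 were higher and 8 lower with PD-L1-overexpressing cells (median -0.021), none past the test. In single mice, calls were 0 higher and 6 lower in mouse A, where 18.1% of all genes were higher and 12.7% lower. They were 5 higher and 0 lower in B (6.3% and 2.96% of all genes), 2 higher and 4 lower in C (3.09% and 5.35%), and 6 higher and 0 lower in D (4.56% and 4.09%). Ccl5, a chemokine, averaged 10.21 in mouse A against 11.31 to 11.62 in the other mice. Isg20, an exonuclease, was lower in mouse A (-0.92, SE 0.036, limma adjusted p = 2.64e-07). Like Irf7, both were called lower in mouse A and in no other mouse. Oas1a, a sensor of double-stranded RNA, was low in both A and C (8.66 and 8.77) against B and D (9.56 and 9.68), with the same split of the mice as Irf9 and Usp18. Isg20 and Rtp4, an interferon-induced chaperone, had the smallest p between targets, at 0.051 and 0.073 and higher in 4 of 4 mice, without passing.

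**Figure D4:**
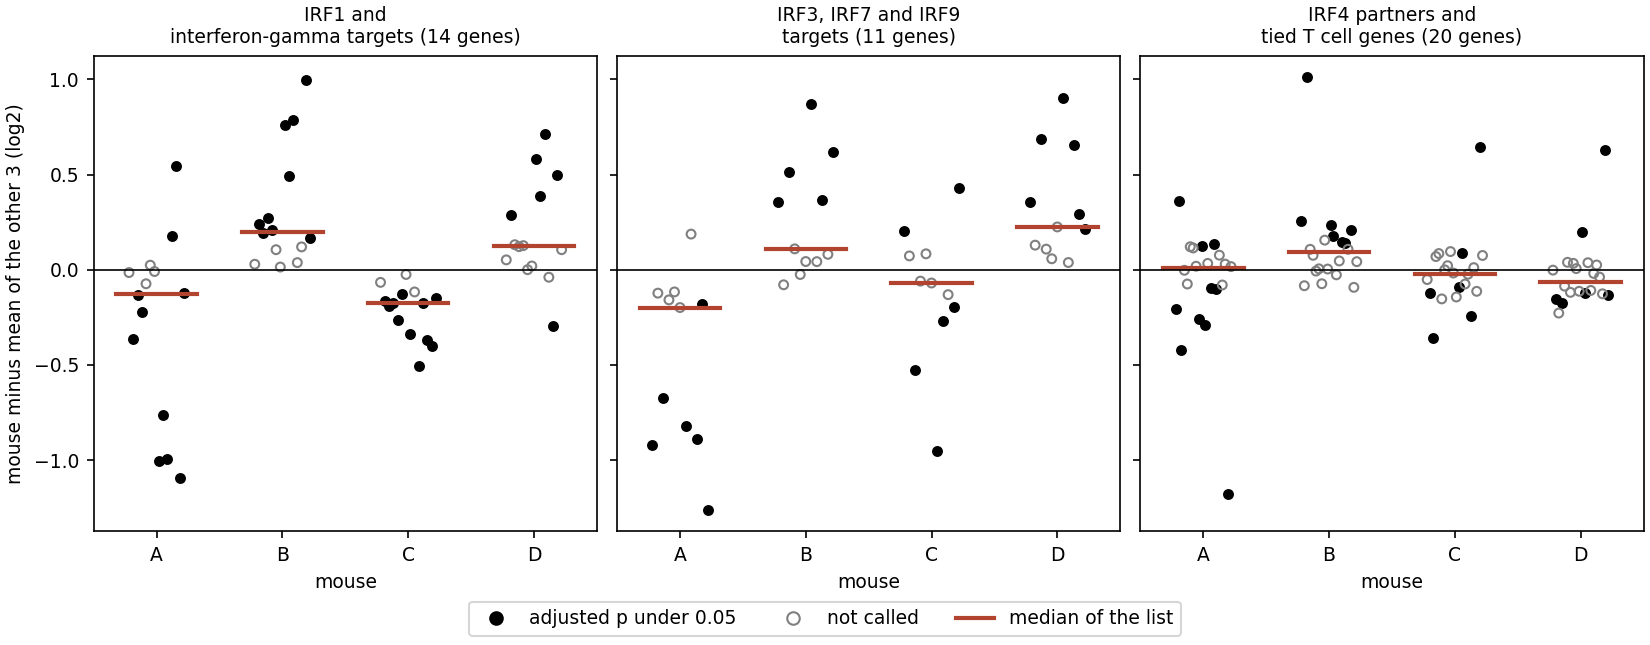
Each mouse minus the mean of the other 3 mice (vertical axis, log2) for the tested genes of 3 lists tied to the factors. Filled points have a limma adjusted p under 0.05, open points do not, and red lines are list medians. The IRF1 list has medians of -0.13 (A), 0.20 (B), -0.18 (C) and 0.12 (D). The medians of the IRF4 list lie nearer to 0, though its genes reach -1.18 (Cdkn2a in A) and 1.01 (Jun in B).

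Partners and T cell genes tied to IRF4 were called in both directions in mouse A, more of them lower, whereas more genes at large were called higher. Of 20 tested, 12 (60%) passed the F test, beside 29.3% of all genes. Calls were 3 higher and 7 lower in A (18.1% and 12.7% of all genes) and 7 higher and 0 lower in B (6.3% and 2.96%). They were 2 higher and 4 lower in C (3.09% and 5.35%), and 2 higher and 4 lower in D (4.56% and 4.09%). Between targets 9 were higher and 11 lower with PD-L1-overexpressing cells (median -0.0063), none past the test. Batf3 was higher in mouse A (0.36, SE 0.027, limma adjusted p = 1.83e-05), at 12.11 against 11.72 to 11.78 in the other mice, as Irf4 was. Batf, the partner with which IRF4 binds composite sites, was lower there (-0.20, adjusted p = 0.00993) and higher in B. Jun was higher in mouse B (1.01, SE 0.070, adjusted p = 4.52e-05), with means from 10.93 to 11.07 in the other mice. Cdkn2a, a cell cycle inhibitor, was low in A at 6.77 against 7.59 to 8.14. Nr4a1 and Jun had the smallest p between targets, at -0.068 (SE 0.027) in 4 of 4 mice and -0.15 (SE 0.061) in 3 of 4, and neither passed.

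By profile over the 8 arrays, each member had other genes close to it. The 3 with the highest Pearson r to Irf1 were Anxa4 (0.985), H2-Q10 (0.979) and Casp1 (0.979), and those to Irf9 were Nme4 (0.985), Gbp6 (0.982) and Ogfrl1 (0.977). For Irf4 they were Il24 (0.989), Atad3a (0.985) and Usp36 (0.982), and for Irf7 Ndufv3 (0.991), Tsc22d3 (0.982) and Aldoa (0.980). Irf8 was nearest to Ing2 (0.970), Foxk1 (0.946) and Retreg3 (0.942). Of the members that did not pass between mice, Irf2 was nearest to Ccdc88c (0.980), Ppp2r1a and Sri, Irf3 to Mtfmt (0.990), Ndufaf1 and Dus1l, and Irf5 to Otud5 (0.980), Cct8 and Utp18. Within the family, Irf1 correlated with Irf9 at 0.87 and with Irf7 at 0.82, and Irf4 with Irf3 at 0.73 and with Irf7 at -0.67. These values describe 8 arrays of 4 animals that share T cells in pairs, and among 8003 genes some lie close to any profile.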

How the data were processed

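T cell RNA was biotin-labelled with a 3′ expression array kit, per the labels' protocols. Each array was deposited as 1 log2 value for every probe set, and values spanned 3.60 to 15.24. That the scale is log2 follows from this span, and how the authors summarised and normalised probes is not given in the sources used here. After sorting, the arrays differed by at most 0.167, and a shift common to most genes would not be visible. Precision is limited by having 4 arrays for each kind of target.

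Of 22690 probe sets, 64 controls were left out, and 20380 of the rest had 1 gene symbol, 691 several and 1555 none. No symbol needed updating through the reference table, and 29 identifiers not found there kept theirs. The probe set with the highest mean stood for each of 12393 genes, and 4390 under 6.87, the 40th percentile of probe set means, were not tested, which left 8003. Tests were those of limma 3.58.1 under R 4.3.3, with lmFit and a variance trend in eBayes. They were two-sided, and p-values were adjusted by Benjamini and Hochberg's method over the 8003 genes, with 0.05 as the threshold. The mouse was a block in the comparison of targets, since the series design states that cells of each mouse were divided. Deviations of the 2 arrays of a mouse from their group means correlated at 0.82 (A), 0.16 (B), 0.61 (C) and 0.64 (D). The fitting code was first tested on simulated data of known truth.

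Members, gene lists and motifs were chosen with earlier results of these data known, and no adjustment over a list alone is given. Named were all members, the 3 genes most like each in profile, the 2 genes of each list with the smallest p in each comparison, and known partners or targets. Socs1, Socs3, Cd274, Ifih1, Oas1a, Mx1 and the other genes under the filter in the list with Mx1 were named after their values were seen. List genes with no single-symbol probe set were not analysed here. The table held 0 columns of other samples. Alternatives were no block, other scalings, filters, probe set rules, variance settings and leaving out each mouse.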

Additional observations from a re-analysis of the deposited data

Results flagged for a closer look

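Irf7 with PD-L1-depleted targets stood far apart in mouse A, at 7.47 against 8.04 to 8.15 in the other 3 mice. The gap to the nearest mouse was 0.839 of the group's range, above Dixon's 95% value for 4 samples. It was the only such array among 28 groups of 4 values, over all 14 probe sets and both targets, where chance gives about 1.4. With PD-L1-overexpressing targets Irf7 was also lowest in mouse A (7.70), below that value.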

How the results depend on the processing

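No member tested passed between targets under any setting run, and the replicate block changed no call: without it 0 genes passed. With the filter at the 60th percentile Irf2 and Irf7 were not tested, as their means lay at percentiles 49.5 and 55.2. Leaving out each mouse gave 0 to 176 genes between targets, the 176 without mouse B, and 576 (without A) to 3555 (without B) between mice, where 2347 passed. Mouse contrasts called 741, 675 and 692 genes in B, C and D, against 471, 381 and 354 without a variance trend, and 333 in B and 1422 in D with array weights. Signs of members not called between targets changed as follows. Irf2 was 0.0011 and Irf3 -0.0040 with quantile normalisation, Irf3 and Irf5 were each -0.018 with the mean of probe sets, and Irf3 was -0.013 with array weights. Other probe sets gave -0.040 and -0.061 for Irf3 and -0.11 for Irf5. Leaving out each mouse moved Irf2 from -0.066 to 0.026, Irf3 from -0.031 to 0.034, Irf4 from -0.060 to 0.019, Irf7 from -0.020 to 0.066 and Irf8 from -0.0066 to 0.044. The causes were not tested, apart from fewer mice in the last set. Of 22 pairs of a member and a mouse that were not called, 4 were called under at least 1 alternative.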

Other observations

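The interferon genes themselves gave little signal besides Ifng. Ifna1, Ifna2, Ifna4 and Ifnb1 lay between 5.21 and 6.75 on every array, under the filter, so no comparison was made. Ifng, the main cytokine that induces IRF1, averaged 13.10 (mouse A), 13.13 (B), 13.28 (C) and 12.88 (D), and was thus highest in C and lowest in D, an order unlike that of Irf1. Mx1, an antiviral GTPase just under the filter, read 6.05 (mouse A), 7.03 (B), 6.93 (C) and 7.15 (D) with PD-L1-overexpressing targets, against 6.12, 7.06, 6.95 and 7.17 with PD-L1-depleted targets. Other genes of its list, that of IRF3, IRF7 and ISGF3, were also under the filter. Of these, Ifit3 and Oasl2 were lowest in mouse A for both targets, and Ifit1, Ifit2 and Oas2 were not.

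Of 5 tested genes that encode proteins known to bind these factors, 2 (40%) passed the F test between mice, beside 29.3% of all genes. Fkbp4, an immunophilin reported to bind IRF4, was higher in mouse A (0.38, SE 0.033, limma adjusted p = 5.68e-05), at 11.16 against 10.75 to 10.83 in the other mice, and lower in C (-0.14, adjusted p = 0.0388) and D (-0.17, adjusted p = 0.0136). Rbck1, a subunit of a ubiquitin ligase, was higher in A (0.13, adjusted p = 0.0258) and lower in C (-0.19, adjusted p = 0.0149). Trim21 and Fkbp4 had the smallest p between targets in this list, at -0.066 and 0.032, and neither passed.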
